A study of Mus musculus with 9 samples.

Results

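The genes described here are 10 transcriptional targets of p53: Cdkn1a, Mdm2, Ccng1, Bbc3, Bax, Trp53inp1, Sesn1, Gdf15, Plk2 and Btg2. They were taken by name from the gene rows of both expression tables, where each has 1 row, and make up 10 of 24318 genes. Steady-state RNA was measured by rRNA-depleted RNA-seq in N2A cells, a mouse neuroblastoma line labelled N2a, after siRNA-mediated depletion of EXOSC3, a cap subunit of the RNA exosome, or of DDX1, a putative DEAD-box RNA helicase that associates with it. Scramble siRNA served as the control. There were 3 libraries per condition and 9 in all. The genotype is given as WT for siScramble cells, EXOSC3 knockdown for siEXOSC3 cells and DDX1 knockdown for siDDX1 cells, and every sample is listed as untreated, so no DNA-damaging agent was applied. All 3 groups come from 1 cell line and were transfected with siRNA by lipofection, and a depletion by siRNA is partial and transient. Expression is given as FPKM, which scales the fragments of a gene by the length of its transcript and the size of the library, and the authors deposited it in 2 tables, 1 per knockdown. Each table holds the same 3 scramble libraries, so the 2 comparisons share their controls.

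p53 is a transcription factor that is held at a low level by MDM2, the ubiquitin ligase that marks it for degradation, and that accumulates after DNA damage and other stress. It binds paired decamers in the DNA near its target genes. Its targets halt the cell cycle (Cdkn1a, Btg2), close the feedback loop onto p53 (Mdm2, Ccng1), promote apoptosis (Bbc3, Bax, Trp53inp1) or take part in stress signalling (Sesn1, Gdf15, Plk2). Many of them also respond to factors other than p53.

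To show what p53 could bind near these genes, the NCBIM37 (mm9) sequence was searched for the p53 consensus within 3000 bp of each annotated 5′ end. The consensus is a pair of decamers of 10 bases each, separated by 0 to 13 bases, and since it reads the same on both strands a single search covers both. An exact match was found near 2 of the 10 genes, Cdkn1a and Trp53inp1, and a match with up to 1 mismatch near 8 of the 10, with none near Bbc3 or Sesn1. Over 10299 tested genes with an annotated position, 1.89% held an exact match and 28.4% a match with up to 1 mismatch. The elements below are written on the strand of the gene, with bases 4 to 7 of each decamer, the core of the consensus, in capitals. For genes with several matches, the one printed has no spacer or the shortest one and lies upstream: Cdkn1a has 2 further matches, Ccng1 has 1 in an intron and Bax has 2 in introns. Positions count from the annotated 5′ end, with upstream negative. The Cdkn1a element starts at -51, at chr17:29227873-29227892, and has 1 mismatch, as have all those printed except that of Trp53inp1. The Mdm2 element starts at -931, at chr10:117148726-117148745. The Ccng1 element starts at -170, at chr11:40568964-40568983, and the Bax element at -212, at chr7:52722460-52722480. The Trp53inp1 element is exact and starts at -1319, at chr4:11082259-11082279. The Gdf15 element lies in an exon at chr8:73155865-73155884, and the Plk2 element in an exon at chr13:111185317-111185338.
Cdkn1a: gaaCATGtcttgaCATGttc
Mdm2: gggCAATtccgggCAAGtcc
Ccng1: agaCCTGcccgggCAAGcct
Bax: aagCATAtcccaggCAAGctt
Trp53inp1: aaaCATGtccaggaCTAGcct
Gdf15: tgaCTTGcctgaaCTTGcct
Plk2: gggCTAGcccggacgCTTGtcc
The exact match of Cdkn1a has a spacer of 12 bases and overlaps the printed element, and the match near Btg2, at chr1:135978084-135978114, has 1 mismatch and a spacer of 11 bases. These are matches of letters and not measured binding.

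Each siRNA lowered its target: Exosc3 fell to 15.5% ± 1.90 of scramble (SD, n = 3) in siEXOSC3 cells and Ddx1 to 24.4% ± 2.99 (SD, n = 3) in siDDX1 cells. The depth of the libraries relative to scramble replicate 1 lay between 0.83 and 1.2, and the absolute depth is unknown. Pearson's r between replicates was 0.995 to 0.997 for scramble, 0.983 to 0.992 for siEXOSC3 and 0.986 to 0.994 for siDDX1 libraries. Among the siDDX1 libraries replicate 3 stood apart, with the most Ddx1 left (34.8 FPKM against 28.0 and 28.7). Without it 1818 genes increased in place of 623 and 1706 decreased in place of 559. Its effect is given beside siDDX1 calls and counts that it changes. Counts of lists without it belong beside these larger numbers, since the shares of all tested genes come from the fit with all libraries. The libraries carried the neuroblastoma markers Hand2 (123 FPKM in scramble), Tubb3 (95.8) and Chga (87.3), while Th was at 0.179. Summed markers of other cell types were between 6.22 and 7.31 FPKM in scramble, mostly Pecam1 and Mbp, with Ptprc, Aif1, Epcam, Alb and Col1a2 listed at 0. That sum was between 8.69 and 11.8 FPKM in siEXOSC3 and between 7.22 and 8.03 in siDDX1 libraries.

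In scramble cells the p53 target genes were expressed at very different levels, which FPKM allows to be compared because it is per transcript length. Bax was highest with a mean of 56.1 FPKM and Mdm2 followed with 53.1, and the ranges of this pair overlapped. Cdkn1a was next with 43.5 FPKM, below every Mdm2 value. Ccng1 (21.6) and Gdf15 (21.4) overlapped, and so did Trp53inp1 (8.39) and Sesn1 (7.71), while Btg2 (6.59) and Bbc3 (1.85) were each separate from the gene above. Plk2 was listed at 0 in all 3 scramble libraries. Most of the set was thus readily measured in control cells, with Bbc3 low and Plk2 at the limit.

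**Figure D1:**
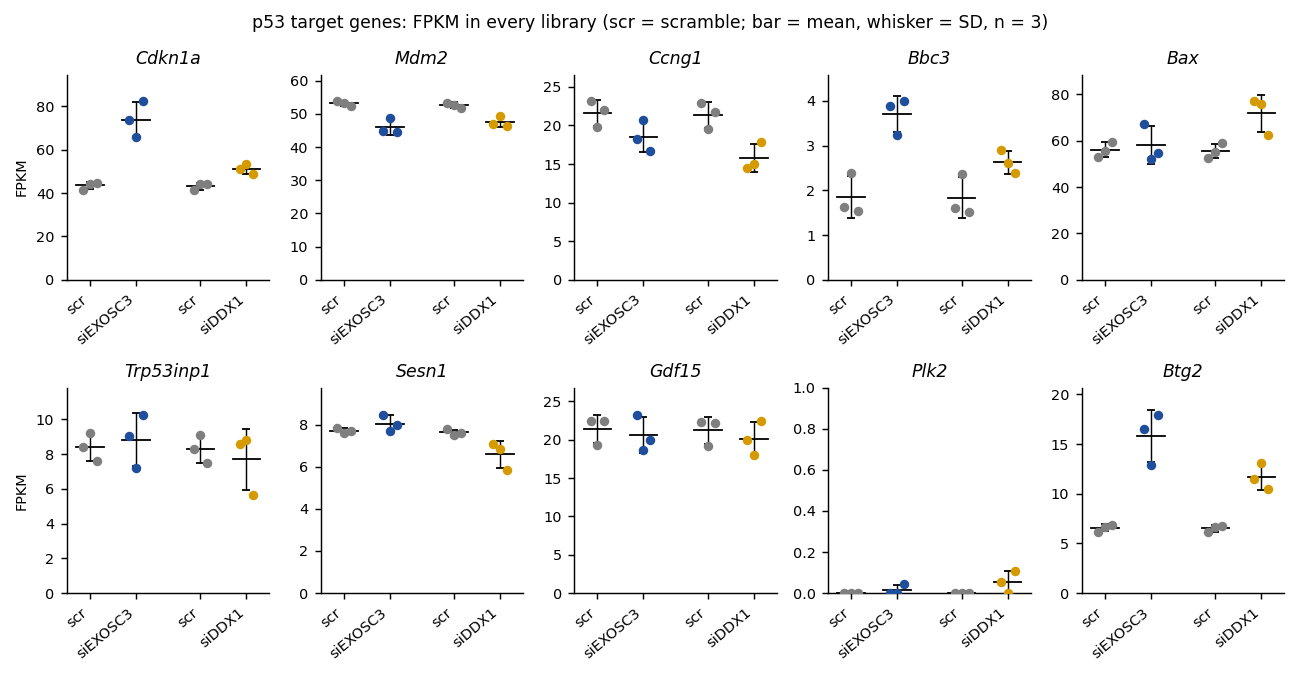
FPKM of each of the 10 p53 target genes in every library, with the scramble values of each table beside the knockdown of that table; points are libraries, the bar is the mean and the whisker the SD (n = 3). Btg2 and Cdkn1a lie above all scramble values in both knockdowns, Bbc3 reaches 199.9% of its low scramble level in siEXOSC3 cells, and Plk2 stays near 0 on an axis that ends at 1 FPKM.

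To ask whether p53 target genes change when EXOSC3 is depleted, each was compared with scramble by limma on log2(FPKM + 1), with p-values adjusted by Benjamini-Hochberg over the 11242 genes tested and a threshold of 0.05. Of the 10 genes, 9 were tested and Plk2 was under the minimum mean of 1 FPKM. Btg2, Cdkn1a and Bbc3 increased, against a background of 16.7% of all tested genes. Mdm2 decreased, against a background of 15.7%. The other 5 did not pass the test. In all, 4 of the 9 changed in either direction, where 32.4% of all tested genes did. The values of 3 genes lay above all scramble values (background 23.8%) and those of 1 below (background 25.9%), so that 4 did not overlap with scramble (background 49.7%). The median log2 fold change of the 9 genes was 0.06, beside -0.01 over all tested genes.

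The largest change was that of Btg2. Btg2, an antiproliferative member of the BTG/TOB family that recruits deadenylases to mRNA, measured 16.5, 12.9 and 17.97 FPKM in siEXOSC3 replicates 1, 2 and 3 against 6.19, 6.70 and 6.88 FPKM in scramble. All knockdown values were above all scramble values. Btg2 rose to 239.5% ± 39.6 of scramble (SD, n = 3), a log2 fold change of 1.13 with a standard error of 0.116 and an adjusted p of 0.000893 by limma, which ranked 79 from the top of the 11242 genes.

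Cdkn1a encodes p21, the inhibitor of cyclin-dependent kinases through which p53 arrests cells in G1. It measured 73.6, 65.6 and 82.3 FPKM against 41.6, 44.4 and 44.5 FPKM. The groups did not overlap. Cdkn1a rose to 170% ± 19.2 of scramble (SD, n = 3). Its log2 fold change was 0.75 with a standard error of 0.0873, and limma gave an adjusted p of 0.00136. For both Btg2 and Cdkn1a, replicate 2 was the lowest siEXOSC3 library and replicate 3 the highest. Exosc3 itself was 6.84, 7.68 and 6.01 FPKM in replicates 1, 2 and 3, so the library with the most Exosc3 left had the smallest increase, over 3 libraries and with no test. Ccng1, cyclin G1, which works with a phosphatase that activates MDM2, measured 18.2, 20.7 and 16.7 FPKM against 23.1, 19.8 and 21.9 FPKM. Its groups overlapped, and the log2 fold change of -0.21 (standard error 0.0936) did not pass the test, with an adjusted p of 0.112 by limma. Without siEXOSC3 replicate 2, Ccng1 passed it, with an adjusted p of 0.0251.

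Mdm2, which carries the negative feedback onto p53, did not follow Cdkn1a. It measured 45.0, 48.8 and 44.5 FPKM against 53.8, 53.2 and 52.4 FPKM, so every knockdown value was below every scramble value. The decrease to 86.8% ± 4.43 of scramble (SD, n = 3) had a log2 fold change of -0.20, a standard error of 0.0629 and an adjusted p of 0.0402 by limma. This call was near the threshold. With 5 libraries in place of 6 the adjusted p of Mdm2 was 0.0145 without siEXOSC3 replicate 2, but 0.134 and 0.0646 without siEXOSC3 replicates 1 and 3, and 0.141, 0.11 and 0.0931 without scramble replicates 1, 2 and 3.

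Of the genes that promote apoptosis, Bbc3 increased in siEXOSC3 cells, and Bax and Trp53inp1 did not pass the test. Bbc3 encodes PUMA, a BH3-only protein that neutralizes the survival members of the BCL2 family. It measured 3.87, 3.24 and 3.99 FPKM against 1.63, 2.39 and 1.54 FPKM. The groups did not overlap, although the scramble libraries of this low gene were more scattered than those of Cdkn1a. Bbc3 rose to 199.9% ± 21.8 of scramble (SD, n = 3), which on the scale of log2(FPKM + 1) was 0.73 with a standard error of 0.135 and an adjusted p of 0.00643 by limma. Bax, the pore-forming effector that PUMA helps to release, measured 67.3, 52.0 and 54.8 FPKM against 52.96, 55.8 and 59.5 FPKM. Trp53inp1, a nuclear protein that aids p53 phosphorylation and autophagy, measured 9.03, 7.19 and 10.3 FPKM against 8.38, 9.19 and 7.60 FPKM. Both overlapped with scramble, with log2 fold changes of 0.04 for Bax (95% interval -0.19 to 0.27) and 0.06 for Trp53inp1 (-0.23 to 0.34).

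The stress genes did not change past the threshold in siEXOSC3 cells. Sesn1, sestrin 1, which restrains mTORC1 signalling, measured 8.48, 7.71 and 7.97 FPKM against 7.83, 7.59 and 7.70 FPKM. Gdf15, a secreted stress cytokine of the TGF-beta family, measured 23.3, 18.7 and 20.01 FPKM against 22.5, 19.3 and 22.4 FPKM. The groups overlapped in both, with adjusted p-values of 0.580 and 0.706 by limma. Plk2, a kinase of the polo-like family, was listed at 0 in 2 of the siEXOSC3 libraries and at 0.0421 FPKM in replicate 3, so no fold change is given.

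**Figure D2:**
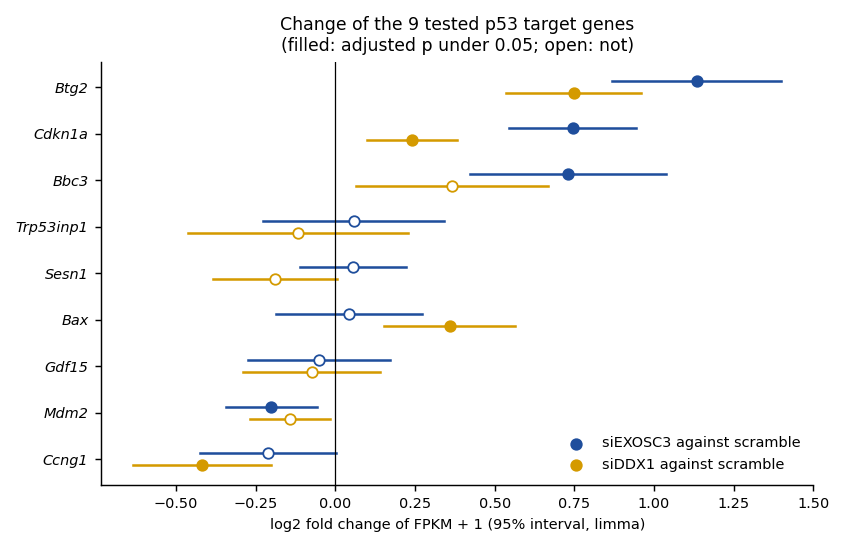
Log2 fold change of FPKM + 1 against scramble for the 9 tested p53 target genes, with the 95% interval from limma (n = 3 libraries per group); filled points passed an adjusted p-value of 0.05. Btg2 is at the top in both knockdowns, with 1.13 in siEXOSC3 and 0.75 in siDDX1 cells, and Ccng1 and Mdm2 lie below 0 in both.

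The same question was asked for DDX1 depletion, where fewer genes changed overall. In siDDX1 cells 9 of the 10 genes were tested among 11104 genes. Btg2, Bax and Cdkn1a increased, against a background of 5.61% of all tested genes. Ccng1 decreased, against a background of 5.03%, and the other 5 did not pass the test. The median log2 fold change of the 9 genes was -0.07, beside a value of -0.00059 over all tested genes. This median was not stable in sign, with 0.06 without siDDX1 replicate 3, -0.0024 without siDDX1 replicate 2, 0.00023 with no filter on low FPKM and 0.0045 with a trend on GC content and length removed. The knockdown values of 4 of the genes lay above all scramble values (background 17.0%), those of 3 lay below (background 17.8%) so that 7 did not overlap with scramble (background 34.7%). The number changed in either direction was 4, against a background of 10.6%. Without siDDX1 replicate 3 the number increased was 4 and the number decreased 1, where those over all genes also grew. Leaving out any other library gave 1 increased.

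Btg2 again gave the largest increase. It measured 11.5, 13.1 and 10.5 FPKM in siDDX1 replicates 1, 2 and 3 against 6.15, 6.65 and 6.80 FPKM in scramble. No value overlapped. Btg2 rose to 179% ± 20.4 of scramble (SD, n = 3). Its log2 fold change was 0.75 with a standard error of 0.0927, and limma gave an adjusted p of 0.00632, and ranked 65 from the top of the 11104 genes. Without siDDX1 replicate 3 its adjusted p was 0.000415.

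Cdkn1a had a smaller fold change. It measured 51.1, 53.6 and 48.6 FPKM against 41.2, 44.0 and 44.0 FPKM, with all siDDX1 values above scramble. Cdkn1a rose to 119% ± 5.80 of scramble (SD, n = 3). Its log2 fold change was 0.24 with a standard error of 0.0618, and limma gave an adjusted p of 0.0451. Without siDDX1 replicate 3 the adjusted p of Cdkn1a was 0.00852. It was past the threshold in no fit that left out another library, with 0.107 and 0.155 without siDDX1 replicates 1 and 2, and 0.176, 0.102 and 0.123 without scramble replicates 1, 2 and 3.

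Ccng1 went the other way from Btg2 and Cdkn1a. It measured 14.5, 14.98 and 17.9 FPKM against 22.9, 19.6 and 21.7 FPKM, so that replicate 3 was the siDDX1 library nearest to scramble. Ccng1 fell to 73.8% ± 8.46 of scramble (SD, n = 3). Its log2 fold change was -0.42 with a standard error of 0.0941, and limma gave an adjusted p of 0.0295. The adjusted p of Ccng1 was 0.00169 without siDDX1 replicate 3 and 0.0483 without scramble replicate 2, and the call was lost without siDDX1 replicates 1 (0.0898) and 2 (0.103) and without scramble replicates 1 (0.133) and 3 (0.116). Mdm2 measured 47.0, 49.4 and 46.4 FPKM against 53.3, 52.8 and 51.8 FPKM. All its siDDX1 values were below scramble, but the log2 fold change of -0.14 (standard error 0.0549) did not pass the test, with an adjusted p of 0.127 by limma.

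Bax, which did not pass the test after EXOSC3 depletion, did so after DDX1 depletion. It measured 77.0, 75.9 and 62.4 FPKM against 52.5, 55.3 and 58.8 FPKM, and no value overlapped. Bax rose to 129% ± 14.6 of scramble (SD, n = 3). Its log2 fold change was 0.36 with a standard error of 0.0898, and limma gave an adjusted p of 0.0424. Replicate 3 was again the siDDX1 library nearest to scramble, and without it the adjusted p of Bax was 0.00120. Leaving out any other library lost the call of Bax, with 0.120 and 0.137 without siDDX1 replicates 1 and 2, and 0.160, 0.106 and 0.1 without scramble replicates 1, 2 and 3.

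Bbc3 measured 2.89, 2.60 and 2.38 FPKM against 1.61, 2.37 and 1.52 FPKM. The siDDX1 values lay just above all scramble values, at 143% ± 13.8 of scramble (SD, n = 3), but the adjusted p of Bbc3 was 0.107 by limma. It was past the threshold only without siDDX1 replicate 3 (0.0483). Trp53inp1 measured 8.59, 8.81 and 5.67 FPKM against 8.31, 9.12 and 7.51 FPKM, where the value of replicate 3 was below the rest and the groups overlapped (adjusted p 0.638 by limma).

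Sesn1 measured 7.10, 6.82 and 5.85 FPKM against 7.77, 7.53 and 7.61 FPKM in scramble. All siDDX1 values of Sesn1 were lower, and its log2 fold change of -0.19 (95% interval -0.39 to 0.01) did not pass the test, with an adjusted p of 0.177 by limma. Gdf15 measured 19.9, 18.1 and 22.4 FPKM against 22.3, 19.2 and 22.2 FPKM, which overlapped. Plk2 was listed at 0.0559, 0 and 0.106 FPKM in siDDX1 libraries. It stayed under the minimum level for a test, and an exact permutation test of 3 against 3, which cannot go below p = 0.1, gave p = 0.4 (two-sided).

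Btg2 and Cdkn1a passed the test with an increase in each comparison, and the comparisons share the scramble libraries. Bbc3 and Mdm2 passed the test in siEXOSC3 cells alone and Bax and Ccng1 in siDDX1 cells alone, which does not show that the knockdowns differ: the tables were scaled separately and no difference between knockdowns was tested. Trp53inp1, Sesn1 and Gdf15 passed in neither. Among calls, those of Btg2 in both knockdowns and of Cdkn1a and Bbc3 in siEXOSC3 cells were kept whichever library was left out. Those of Mdm2 in siEXOSC3 cells and of Cdkn1a, Ccng1 and Bax in siDDX1 cells were not.

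**Figure D3:**
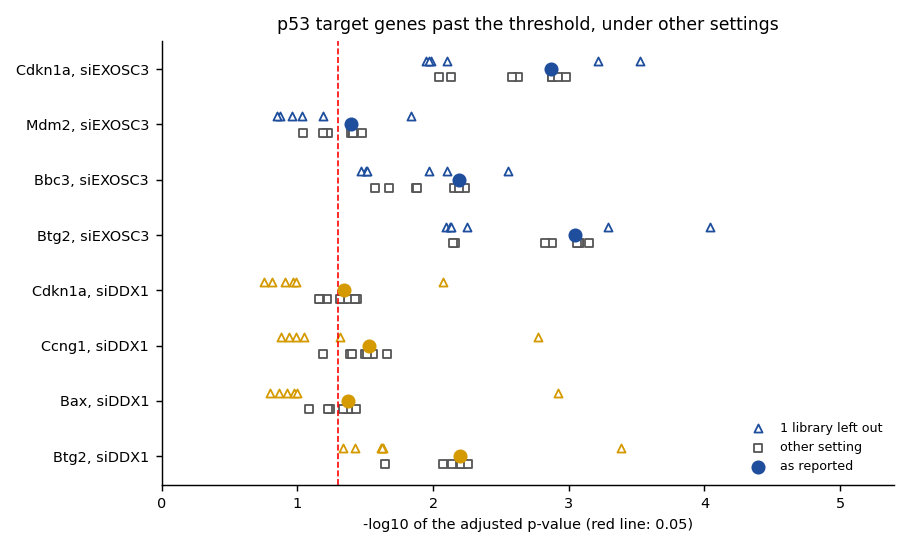
Adjusted p-values of the 8 calls as -log10 on the x axis, as reported (large points), with 1 library left out (triangles) and under other settings of the fit (squares); the red line marks 0.05. All values of Btg2 in both knockdowns and of Cdkn1a and Bbc3 in siEXOSC3 cells lie to the right of the line, while the other 4 calls have values on both sides.

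To see which genes varied across the libraries as Cdkn1a did, Pearson's r of log2(FPKM + 1) with Cdkn1a was taken over the 6 libraries of each table, and 11053 genes were ranked by the smaller of both values. Vamp2, a synaptic vesicle protein, was first with 0.994 in both tables. Gpr153, an orphan receptor, was next with 0.989 and 0.987. Btg2 came next with 0.998 and 0.986, so a p53 target gene was among the 3 genes whose pattern was nearest to that of Cdkn1a. Bbc3 followed Cdkn1a less closely, with 0.946 and 0.815. Mdm2 ran opposite to it, with -0.98 and -0.78, and so did Ccng1, with -0.85 and -0.96. The remaining tested p53 target genes gave 0.233 and 0.955 for Bax, 0.620 and -0.61 for Sesn1, 0.385 and -0.02 for Trp53inp1 and -0.18 and -0.60 for Gdf15. The 6 libraries of a table fall into 2 groups and the tables share the scramble libraries, so these values mostly restate the difference between groups.

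RNA of the p53 gene itself was lower in siEXOSC3 cells and did not pass the test in siDDX1 cells. Trp53 measured 79.9, 89.7 and 72.7 FPKM in siEXOSC3 cells against 96.5, 94.8 and 102 FPKM, so every siEXOSC3 value was below every scramble value. Its mean fell from 97.8 ± 3.80 to 80.8 ± 8.52 FPKM (SD, n = 3). The log2 fold change was -0.28 with a standard error of 0.0841, and the adjusted p was 0.0364 by limma. The call of Trp53 held only without siEXOSC3 replicate 2 (0.00516) and not without any of the other 5 libraries, where its adjusted p was between 0.059 and 0.12. In siDDX1 cells Trp53 measured 110, 99.0 and 107 FPKM against 95.8, 94.1 and 101 FPKM, which overlapped, with a log2 fold change of 0.12 (95% interval -0.03 to 0.26) and an adjusted p of 0.248 by limma. Protein and phosphorylation of p53, on which its activity mostly rests, are not measured here.

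Of 20 genes for p53 and its regulators, all tested, 9 decreased (45.0%, against 15.7% of all tested genes) and 1 increased (5.00%, against 16.7%) in siEXOSC3 cells, with a median log2 fold change of -0.21. With a library left out, the number that decreased was between 5 (without siEXOSC3 replicate 1, scramble replicate 1 or scramble replicate 2) and 11 (without siEXOSC3 replicate 2). Sirt1, a deacetylase that acts on p53, fell from 20.9 to 11.9 FPKM (log2 fold change -0.77, adjusted p 0.00264 by limma). Atm, the kinase that signals double-strand breaks, fell from 13.6 to 8.83 FPKM, and Crebbp, an acetyltransferase that works with p53, fell from 21.5 to 14.5 FPKM. These 3 calls were kept in all 6 fits that left out a library. The 1 increase was that of Cdkn2a, the locus of the MDM2 inhibitor ARF, whose log2 fold change was 0.29 with an adjusted p of 0.0189 by limma. Its call was lost without siEXOSC3 replicate 1 (0.0753), scramble replicate 1 (0.0863) and scramble replicate 3 (0.057). After DDX1 depletion 3 of the 20 decreased (15%, against 5.03% of all tested genes) and none increased (against 5.61%), with a median of -0.0031. The number decreased was 0 without any 1 of the scramble libraries and 1 without siDDX1 replicate 1 or 2, and without siDDX1 replicate 3 the numbers were 4 decreased and 3 increased. Hipk2, a kinase of p53, Atm and Sirt1 had log2 fold changes of -0.39, -0.38 and -0.25, and those of Hipk2 and Sirt1 remained past the threshold only without siDDX1 replicate 3 when a library was left out.

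A list of 30 other p53 target genes was counted in the same way. In siEXOSC3 cells 24 were tested, 5 increased (20.8%, against 16.7% of all tested genes) and 3 decreased (12.5%, against 15.7%), with a median of -0.05, so both shares were near the background. The number increased was 2 without scramble replicate 1, and the number decreased was 1 without any 1 of the scramble libraries and 7 without siEXOSC3 replicate 2. Trp53cor1, the long noncoding RNA lincRNA-p21 that is transcribed near Cdkn1a, measured 4.04, 3.44 and 3.99 FPKM against 1.64, 1.46 and 1.52 FPKM, above scramble in every library. Its log2 fold change was 0.92 with a standard error of 0.0985 and an adjusted p of 0.000995 by limma. Rrm2b, the p53-inducible subunit of ribonucleotide reductase, rose from 10.1 ± 1.65 to 18.03 ± 0.670 FPKM (SD, n = 3), with an adjusted p of 0.00251 by limma. Ptprv, a phosphatase gene, rose from 0.670 to 1.46 FPKM, a call that held only without siEXOSC3 replicate 2 when a library was left out. Its scramble level was under the minimum of 1 FPKM, so it was tested only because of its level in the knockdown, and its call is no support for a change of the list. In siDDX1 cells 23 were tested, 1 increased (4.35%, against 5.61%) and none decreased (against 5.03%), with a median of 0.00051, and without siDDX1 replicate 3 the number decreased was 4. The increase was that of Ddit4, an inhibitor of mTORC1, from 121 to 174 FPKM (log2 fold change 0.53, adjusted p 0.0177 by limma, kept in 3 of 6 fits that left out a library).

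The next list holds 20 cell cycle genes that p53 is known to repress through p21. Whether their changes are linked to that of Cdkn1a was not tested. In siEXOSC3 cells all 20 were tested, 15 decreased (75%, against 15.7% of all tested genes), none increased (against 16.7%), and all 20 had log2 fold changes below 0, with a median of -0.41 beside -0.01 over all genes. Aurka, a mitotic kinase, measured 26.6, 31.2 and 21.3 FPKM against 51.8, 48.5 and 47.7 FPKM. Its groups were far apart, and its log2 fold change was -0.90 with an adjusted p of 0.00242 by limma. Plk1, the polo-like kinase of mitosis, fell from 37.6 to 23.6 FPKM and Ccnb1, cyclin B1, from 174 to 111 FPKM, and the calls of all 3 genes were kept in each fit that left out a library. The number that decreased was 7 at an adjusted p under 0.01, and with a library left out it was between 9 (without siEXOSC3 replicate 1 or scramble replicate 1) and 19 (without siEXOSC3 replicate 2, where the number over all genes also grew, from 1767 to 2508). In siDDX1 cells 2 of the 20 decreased (10.0%, against 5.03%), with a median of -0.15. These were Aurka, from 48.9 to 38.9 FPKM, and Ccna2, cyclin A2, from 83.7 to 68.4 FPKM. Without siDDX1 replicate 3 the number was 8, where the number over all genes grew from 559 to 1706. For this list it was 0 without siDDX1 replicate 2, scramble replicate 1 or scramble replicate 3.

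**Figure D4:**
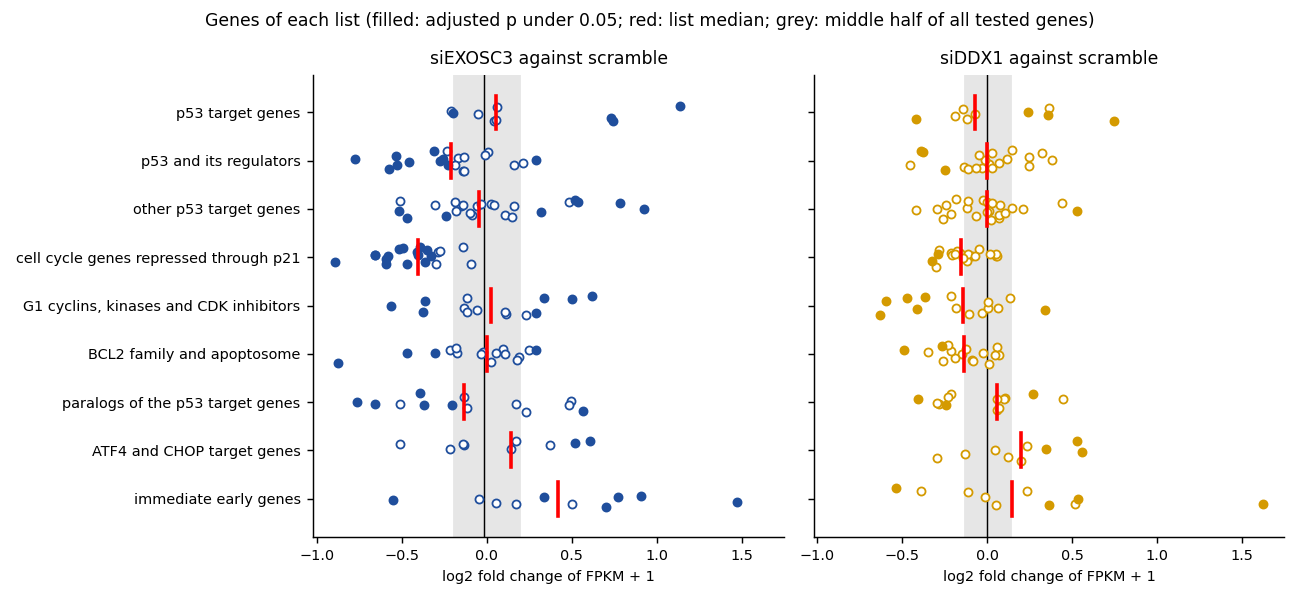
Log2 fold changes of FPKM + 1 for the tested genes of each list (points, filled where the adjusted p-value was under 0.05), with the list median in red, the range from the lower to the upper quartile of all tested genes in grey and the median of all genes as a black line. In siEXOSC3 cells the cell cycle genes all lie below 0, with a median of -0.41, while the p53 target genes spread from -0.21 to 1.13.

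Among 18 genes for G1 cyclins, kinases and CDK inhibitors, 14 were tested in each table. In siEXOSC3 cells 4 increased (28.6%, against 16.7% of all tested genes) and 3 decreased (21.4%, against 15.7%), with a median of 0.02. The number increased was 2 without siEXOSC3 replicate 1 or scramble replicate 1, and the number decreased was 1 without siEXOSC3 replicate 1 or scramble replicate 3. Rb1, the retinoblastoma protein that p21 keeps active, rose from 8.70 to 14.0 FPKM. Ccnd1, cyclin D1, rose from 54.4 to 77.7 FPKM, and Cdkn2c, the CDK inhibitor p18, fell from 6.47 to 4.06 FPKM. In siDDX1 cells 1 increased (7.14%, against 5.61%) and 5 decreased (35.7%, against 5.03%), with a median of -0.14, and the number decreased was 3 without siDDX1 replicate 2 and 0 without scramble replicate 1 or 3. Without siDDX1 replicate 3 the numbers were 2 increased and 6 decreased, where those over all genes grew from 623 to 1818 and from 559 to 1706. None of the list increased in any other fit that left out a library. Ccne2 and Ccne1, the E cyclins, fell from 22.9 to 14.6 and from 9.28 to 5.81 FPKM, and Cdk2, their kinase partner and a target of p21, fell from 26.9 to 19.2 FPKM. These siDDX1 calls were kept in 4 of 6 fits that left out a library for Ccne1 and Ccne2 and in 3 of 6 for Cdk2.

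Of 19 genes of the BCL2 family and the apoptosome, in which Bbc3 and Bax act, 16 were tested in each table. In siEXOSC3 cells 1 increased (6.25%, against 16.7% of all tested genes) and 3 decreased (18.8%, against 15.7%), with a median of 0.0015, and with a library left out the numbers were 0 to 2 and 2 to 4. Bak1, the effector that acts in parallel with Bax, measured 11.8, 13.9 and 11.3 FPKM against 21.6, 21.9 and 26.8 FPKM, with a log2 fold change of -0.87 and an adjusted p of 0.00161 by limma. Its change was opposite in sign to that of Bbc3 in the same cells. Apaf1, the apoptosome scaffold, fell from 5.85 to 3.95 FPKM, and Mcl1, a survival protein, from 69.2 to 56.0 FPKM, with the call of Mcl1 kept in 3 of 6 fits that left out a library. In siDDX1 cells 2 decreased (12.5%, against 5.03%) and none increased (against 5.61%), with a median of -0.13. The number decreased was 6 without siDDX1 replicate 3, where the number over all genes grew from 559 to 1706. For this list it was 1 without scramble replicate 2 and 0 without any 1 of the other 4 libraries. Bak1 fell from 23.2 to 16.2 FPKM while Bax rose. The call of Bak1 was kept in 2 of 6 fits that left out a library, without siDDX1 replicate 3 and without scramble replicate 2.

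Paralogs of the p53 target genes show how near relatives were expressed in the same libraries. Of 14 paralogs 13 were tested in each table, and in siEXOSC3 cells 1 increased (7.69%, against 16.7% of all tested genes) and 5 decreased (38.5%, against 15.7%), with a median of -0.13. The number decreased was 3 without siEXOSC3 replicate 1 or any 1 of the scramble libraries, and the number increased was 3 without siEXOSC3 replicate 2. Tob2, a relative of Btg2, measured 12.96, 12.2 and 11.6 FPKM against 21.5, 21.6 and 21.4 FPKM, all lower, with a log2 fold change of -0.77 and an adjusted p of 0.000522 by limma. The increase was that of Trp53inp2, from 20.6 to 31.1 FPKM, while Trp53inp1 did not pass the test. In siDDX1 cells 1 increased (7.69%, against 5.61%) and 2 decreased (15.4%, against 5.03%), with a median of 0.06. The number decreased was 5 without siDDX1 replicate 3, where that over all genes grew from 559 to 1706, and 0 without scramble replicate 1 or 3. The number increased was 2 without siDDX1 replicate 3 and 0 in the other fits that left out a library. Tob1 fell from 28.9 to 21.6 FPKM and Tob2 from 21.3 to 17.9 FPKM, while Btg1 rose from 10.4 to 12.7 FPKM. The calls of Tob2 and Btg1 in siDDX1 cells held only without siDDX1 replicate 3 when a library was left out.

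Some p53 target genes also respond to the integrated stress response or to growth factor signalling, so genes of both were set beside them. Of 10 target genes of ATF4 and CHOP, 9 were tested, and 2 increased in siEXOSC3 cells (22.2%, against 16.7% of all tested genes) and 3 in siDDX1 cells (33.3%, against 5.61%), with medians of 0.14 and 0.20. None decreased in the reported fits. In siEXOSC3 cells Sesn2, a sestrin, decreased without siEXOSC3 replicate 2 (adjusted p 0.00744 by limma), and Atf4 itself decreased after quantile normalization (0.0398) and with a trend on GC content and length removed (0.0464). In siDDX1 cells Sesn2 and Chac1, which degrades glutathione, decreased without siDDX1 replicate 3 (0.0096 and 0.015). None increased in siEXOSC3 cells without siEXOSC3 replicate 1 or scramble replicate 3, nor in siDDX1 cells without siDDX1 replicate 2, scramble replicate 1 or scramble replicate 3. Ddit3, which encodes CHOP, rose from 386 to 597 FPKM in siEXOSC3 and from 383 to 571 FPKM in siDDX1 cells, with adjusted p-values of 0.0145 and 0.0420 by limma. With a library left out, the call of Ddit3 was kept in 4 of 6 fits in siEXOSC3 cells and only without siDDX1 replicate 3 in siDDX1 cells. Ddit4 rose in both, a call kept in 3 of 6 such fits in each, and Asns, asparagine synthetase, rose from 450.04 to 573 FPKM in siDDX1 cells, which held only without siDDX1 replicate 3. Of 12 immediate early genes, 10 were tested, and 5 increased (50.0%, against 16.7%) and 1 decreased (10.0%, against 15.7%) in siEXOSC3 cells, with a median of 0.42. In siDDX1 cells 3 increased (30.0%, against 5.61%) and 1 decreased (10.0%, against 5.03%), with a median of 0.15. The number increased was 3 in siEXOSC3 cells without siEXOSC3 replicate 1, scramble replicate 1 or scramble replicate 2, and 1 in siDDX1 cells without scramble replicate 1 or 3. Without siDDX1 replicate 3 the numbers were 4 increased and 2 decreased, and none decreased without scramble replicate 3. Ier3, an early response gene, rose from 37.7 to 73.4 FPKM and Jun from 12.04 to 21.2 FPKM in siEXOSC3 cells, and in siDDX1 cells Ier3 rose from 37.4 to 54.7 FPKM while Dusp1, a phosphatase, fell from 9.13 to 5.997 FPKM. Egr1 had the largest change of this list in both, with log2 fold changes of 1.47 and 1.62.

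Markers of the cell line also changed in siEXOSC3 cells, where Btg2, Cdkn1a and Bbc3 rose. Of 13 neuroblastoma markers, 11 were tested, and 7 increased (63.6%, against 16.7% of all tested genes) and none decreased (against 15.7%, and 1 decreased without siEXOSC3 replicate 2) in siEXOSC3 cells, where their summed level was 623 to 676 FPKM against 454 to 518 FPKM in scramble. In siDDX1 cells none of the 11 increased (against 5.61%) or decreased (against 5.03%), with sums of 419 to 492 FPKM against 450.2 to 512 FPKM. Without siDDX1 replicate 3 the numbers were 1 increased and 2 decreased. Of 11 markers of other cell types 2 were tested, too few to read a change of cell type from. In siEXOSC3 cells 1 of them increased (50%, against 16.7%), and in siDDX1 cells none did (against 5.61%). The part of these marker changes in those of Btg2, Cdkn1a and Bbc3 was not tested. In RNA from whole cultures, a change in some cells and a change in all cells cannot be told apart.

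No annotated gene overlaps any of the 10 genes on NCBIM37, which matters because the libraries do not record strand. Cdkn1a spans chr17:29227924-29237667 and Btg2 chr1:135971747-135975697, with no other gene within 5 kb. Bbc3, at chr7:16894965-16903554, has Sae1 on the opposite strand within 5 kb, and Mdm2, at chr10:117125944-117147814, has Cpm. Bax, at chr7:52717065-52722268, has Ftl1 on the same strand within 5 kb. All 10 are protein-coding in GENCODE vM1.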

How the data were processed

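RNA was sequenced from 3 scramble, 3 siEXOSC3 and 3 siDDX1 cultures of N2A cells as paired reads of 150 bases from nondirectional, rRNA-depleted libraries. Per the labels, the authors used TopHat2 version 2.1.0, SAMtools and Cuffdiff version 2.2.1 on mm9, and deposited FPKM for 24318 genes in 2 tables, 1 per knockdown. The annotation and library normalization are not given in the sources used here. FPKM keeps no read number, so the absolute depth is unknown and no counting interval is given. A scramble library has slightly different values in the 2 tables (median ratios 1.00793, 1.00782 and 1.01188), so each knockdown was tested against the scramble values of its own table.

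From the deposited FPKM, log2(FPKM + 1) was tested where the mean over the 6 libraries of a table reached 1 FPKM, in limma (version 3.58.1, run under R version 4.3.3, eBayes with an intensity trend and no covariates), two-sided, with Benjamini-Hochberg adjustment over all genes tested and a threshold of 0.05. The added 1 makes fold changes of low genes smaller than they are in FPKM. The percent of scramble is the knockdown mean over the scramble mean, with the SD of the knockdown libraries on that scale. The fit was tested on simulated data. Positions and sequence come from GENCODE vM1 on NCBIM37, the sequence of mm9. The plots were made with matplotlib version 3.10.9.

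The p53 target genes, the 8 pathway lists, the marker lists and the rule for named genes were chosen with earlier results of these data known. The rule named all 10 p53 target genes, Exosc3, Ddx1 and Trp53. From each list and knockdown it took at most 3 called genes with the largest changes and no overlap with scramble, and it took the 3 genes nearest to Cdkn1a. Other genes are named after their values were seen. Some genes of the lists are counted but not reported here by name. The lists overlap in part (of the genes named, Cdkn2a, Sesn2, Ddit4, Apaf1 and Plk1 are each in more than 1). The increase of Cdkn2a in siEXOSC3 cells thus counts among the regulators of p53 and among the G1 genes. Results were recomputed without the filter or with a minimum mean of 5 FPKM, with a pseudocount of 0.1, after quantile normalization or median centring, without the intensity trend, with a block for the replicate number, at an adjusted p under 0.01 and with each library left out. Removal of a loess trend on GC content and length was chosen after seeing the data. P-values measure the spread between cultures of 1 line.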

Additional observations from a re-analysis of the deposited data

How the results depend on the processing

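Of the 10 p53 target genes, the number increased in siEXOSC3 cells was 3 whichever library was left out. The number decreased there, 1 in the reported fit (Mdm2), was 0 with centring on the median, without an intensity trend, at an adjusted p under 0.01 and with the GC and length trend removed, and 0 to 2 with a library left out. In siDDX1 cells the number increased fell from 3 to 1 (Btg2) with no filter, quantile normalization, no intensity trend or an adjusted p under 0.01, and was 1 to 4 with a library left out. The number decreased there was 0 with no filter or an adjusted p under 0.01, and 0 to 1 with a library left out. Over all genes, 1877 increased and 1767 decreased in siEXOSC3 cells, against 869 and 480 at an adjusted p under 0.01 and ranges of 1027 to 2379 and 583 to 2508 with a library left out. In siDDX1 cells 623 increased and 559 decreased, against 387 and 330 with no filter, 100 and 83 at an adjusted p under 0.01, and ranges of 95 to 1818 and 58 to 1706 with a library left out. The cause was not tested.

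Replicate numbers did not pair the siEXOSC3 libraries with scramble, and whether they pair the siDDX1 libraries is unsettled. Deviations of same-numbered libraries from their group means correlated at 0.0346, -0.31 and -0.126 between scramble and siEXOSC3 and at -0.0121, 0.379 and 0.372 between scramble and siDDX1. With the replicate number as a block, no p53 target gene decreased in siEXOSC3 cells (0 in place of 1), 1059 genes decreased there in place of 1767, and 1085 increased in siDDX1 cells in place of 623. In the lists, the block moved the regulators of p53 in siDDX1 cells from 0 to 4 increased, the other p53 target genes there from 1 to 3 increased, and the paralogs there from 2 to 4 and the immediate early genes from 1 to 2 decreased. It left no regulator and no gene of the BCL2 family increased in siEXOSC3 cells (0 in place of 1 in each), and 2 paralogs in place of 1.

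Some genes that did not pass the test changed sign. With a library left out, the log2 fold changes in siEXOSC3 cells ranged from -0.068 to 0.115 for Bax, from -0.137 to 0.015 for Gdf15 and from -0.047 to 0.183 for Trp53inp1, and in siDDX1 cells from -0.216 to 0.063 for Trp53inp1. With the GC and length trend removed, Bax was at -0.061 in siEXOSC3 cells and Trp53inp1 at 0.0045 in siDDX1 cells. With a minimum mean of 5 FPKM, Bbc3 was too low to be tested. Plk2 was near 0 in every library, so a decrease could not be seen and no increase past the minimum level was found.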
